A study of Mus musculus with 6 samples.

Results

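Genes for the junctions that hold epithelial cells together were measured by bulk RNA-sequencing in whole lungs of 3 TNF+ mice (labelled TNF-Tg) and 3 TNF- mice (labelled WT), all 4 months old. The 10 genes, *Cdh1*, *Epcam*, *Cldn3*, *Cldn4*, *Cldn7*, *Ocln*, *Tjp1*, *Tjp3*, *Cgn* and *Krt8*, were taken by symbol from the 49568 gene symbols of the count table. The transgene of the TNF+ mice is a single copy of the human TNF gene, and the TNF- mice are their wildtype littermates. All mice were female and bred on a C57BL/6 background. The promoter of the transgene is not given in the sources used here, and human TNF itself was not analysed here. Each library came from 1 mouse, so the p-values measure the spread between mice.

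Epithelial cells are joined by 3 kinds of contact. Tight junctions seal the space between neighbouring cells, and their strands are built of claudins, with occludin as a further membrane protein and the zonula occludens proteins and cingulin as the plaque on the inner side. Adherens junctions hold cells together through E-cadherin and its catenins, and desmosomes tie the keratin filaments of neighbouring cells to each other. In the lung these contacts form the air side barrier of the alveolus and the airway.

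Total counts lay between 25396923 and 30049463 in TNF+ lungs and between 31400978 and 32529408 in TNF- lungs. Levels are given as CPM, the count of a gene scaled to a common library size after TMM scaling, which corrects for unequal composition of the libraries. The limit of detection, taken as 3 counts, was 0.0882 to 0.131 CPM depending on the lung and includes counting error alone. The lung markers *Sftpc* and *Ager* were present in every library. One library stood apart, since TNF- replicate 1 carried squamous epithelium and skeletal muscle transcripts. The squamous keratins *Krt4* and *Krt13* reached 56570 and 45433 counts in it, while no other lung had more than 8 counts of either. The summed level of 16 squamous markers was 3792 CPM in that lung, against 21.0 and 36.4 CPM in the other TNF- lungs and 12.7 to 17.6 CPM in TNF+ lungs. *Gm42418* took 5.22% of the counts of TNF+ replicate 1 but only 0.0774% to 0.274% of those of any other lung. Counts of the junction genes are therefore also given without TNF- replicate 1.

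All 10 genes passed the filter on low counts, and 9 of them were lower in TNF+ lungs, at an adjusted p under 0.05 in edgeR's quasi-likelihood test. *Tjp3* did not pass that threshold, and no junction gene was higher. Among all 19199 genes tested, 23.4% were lower in TNF+ lungs at this threshold and 24% were higher, 47.4% in all. The median log2 fold change of the 10 genes was -1.19, beside 0.03 for all tested genes. For 6 of the 10 the log2 fold change was -1 or lower and past the threshold, which held for 12.2% of all tested genes. In all 10 genes every TNF+ lung lay below every TNF- lung, a pattern shown by 28.2% of all tested genes. Their summed level was 515, 466 and 478 CPM in TNF+ lungs and 1170, 1159 and 1071 CPM in TNF- lungs, so the TNF+ mean was 42.9% of the TNF- mean. Without TNF- replicate 1, the count of lower genes was 8, because *Cldn4* no longer passed. In whole lung, fewer epithelial cells and less RNA per epithelial cell cannot be told apart.

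**Figure D1:**
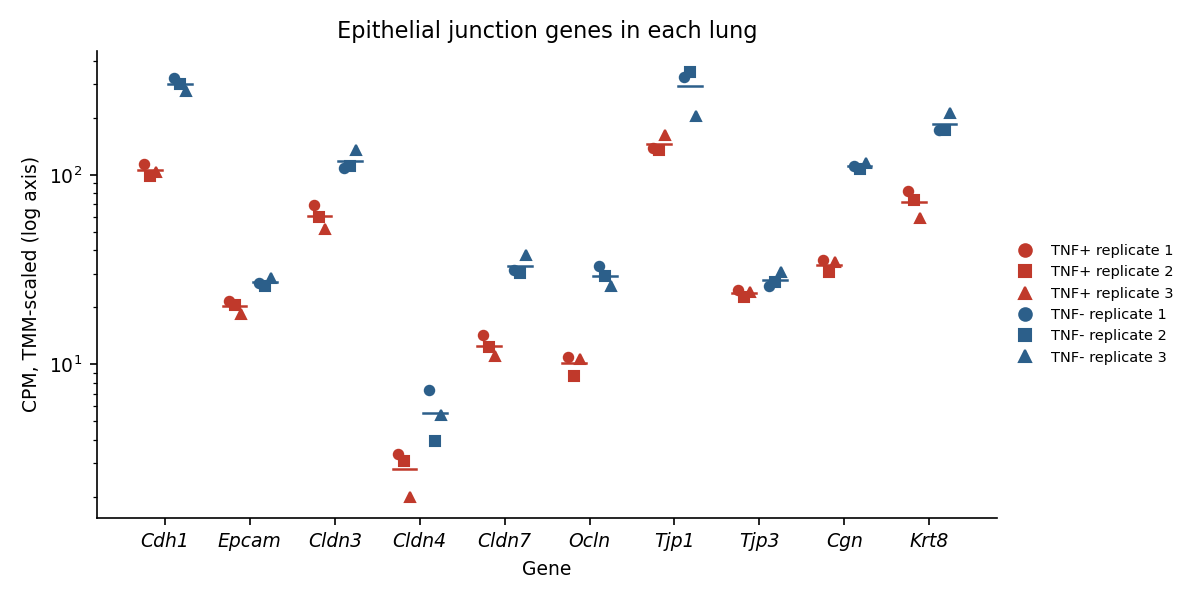
CPM on a log axis for the 10 junction genes in each of the 6 lungs, with TNF+ lungs in red, TNF- lungs in blue, one marker shape per replicate number and a line at the mean of 3 lungs. In every gene the 3 TNF+ lungs lie below the 3 TNF- lungs, widely for *Cgn*, *Cdh1* and *Ocln* and by a narrow gap for *Tjp3*.

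*Cdh1* (ENSMUSG00000000303.12, chromosome 8 of mm10, 106603351 to 106670246) encodes E-cadherin, the cadherin of epithelial adherens junctions. Its level was 114, 98.7 and 104 CPM in the 3 TNF+ lungs and 325, 301 and 278 CPM in the 3 TNF- lungs. The highest TNF+ lung thus lay well under the lowest TNF- lung, and the lungs of one genotype lay close together. *Cdh1* was 2.85-fold lower in TNF+ lungs, with a log2 fold change of -1.51 and a standard error of 0.11 (adjusted p = 3.04e-05 by edgeR).

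*Epcam* (ENSMUSG00000045394.9, chromosome 17, 87635979 to 87651129) encodes an epithelial adhesion molecule that binds claudins and is used to sort epithelial cells. It had 21.6, 20.5 and 18.4 CPM in TNF+ lungs and 26.7, 25.9 and 28.6 CPM in TNF- lungs. The groups did not overlap, but the change was the smallest among the 9 genes that fell. *Epcam* was 1.34-fold lower, a log2 fold change of -0.43 with a standard error of 0.11 (adjusted p = 0.0128 by edgeR).

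The claudins *Cldn3*, *Cldn4* and *Cldn7* all fell, by unequal amounts. *Cldn3* (ENSMUSG00000070473.4, chromosome 5, 134986214 to 134987472), a sealing claudin of lung epithelium, had 69.1, 60.1 and 51.6 CPM in TNF+ lungs and 109, 112 and 135 CPM in TNF- lungs. That made *Cldn3* 1.97-fold lower (log2 fold change -0.98, adjusted p = 0.000762 by edgeR). *Cldn7* (ENSMUSG00000018569.12, chromosome 11, 69964779 to 69967885), a partner of the Epcam protein, had 14.3, 12.3 and 11.03 CPM against 31.2, 30.2 and 37.7 CPM. This was the largest change among the 3 claudins, with a log2 fold change of -1.40 and a standard error of 0.14 (adjusted p = 0.000146 by edgeR). *Cldn4* (ENSMUSG00000047501.3, chromosome 5, 134945119 to 134946934) had the fewest counts among the 10, with 77, 90 and 64 counts in TNF+ lungs and 230, 124 and 184 counts in TNF- lungs. As levels these were 3.36, 3.08 and 2.00 CPM against 7.27, 3.93 and 5.41 CPM, so TNF- replicate 2 lay only a little above the highest TNF+ lung. The highest of the 6 values belonged to TNF- replicate 1, the lung with the squamous transcripts. *Cldn4* had a log2 fold change of -0.98 with a standard error of 0.29 (adjusted p = 0.0234 by edgeR), and without that lung the value was -0.77 (adjusted p = 0.0678 by edgeR). It also lost the threshold without TNF+ replicate 2 (log2 fold change -1.05) or without TNF+ replicate 3 (log2 fold change -0.80, adjusted p = 0.0616 by edgeR).

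*Ocln* (ENSMUSG00000021638.12, chromosome 13, 100496507 to 100552718) encodes occludin, the tight junction membrane protein outside the claudin family. It had 10.9, 8.69 and 10.7 CPM in TNF+ lungs and 33.1, 29.2 and 25.8 CPM in TNF- lungs. No TNF+ lung came near the TNF- range. *Ocln* was 2.91-fold lower, with a log2 fold change of -1.54 and a standard error of 0.14 (adjusted p = 9.44e-05 by edgeR).

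The 3 genes for the tight junction plaque held both the largest and the smallest change of the 10. *Cgn* (ENSMUSG00000068876.14, chromosome 3, 94760069 to 94786492) encodes cingulin, which links the plaque to actomyosin. Its level was 35.7, 30.5 and 34.5 CPM in TNF+ lungs and 112, 107 and 115 CPM in TNF- lungs, the largest fall of the 10 genes. *Cgn* was 3.32-fold lower, with a log2 fold change of -1.73 and a standard error of 0.10 (adjusted p = 9.5e-06 by edgeR). Of all tested genes, 5.07% had a lower log2 fold change. *Tjp1* (ENSMUSG00000030516.14, chromosome 7, 65296165 to 65527781) encodes ZO-1, a scaffold that binds claudins and actin in epithelium and in endothelium. It had 139, 135 and 162 CPM in TNF+ lungs and 327, 349 and 203 CPM in TNF- lungs. TNF- replicate 3 was the low one, and it still lay above every TNF+ lung. *Tjp1* had a log2 fold change of -1.01 with a standard error of 0.20 (adjusted p = 0.00403 by edgeR), and leaving out any 1 lung kept it between -1.22 and -0.87.

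*Tjp3* (ENSMUSG00000034917.8, chromosome 10, 81273207 to 81291581) encodes ZO-3, the zonula occludens protein found mainly in epithelium. Its level was 24.6, 22.7 and 24.1 CPM in TNF+ lungs and 25.9, 27.2 and 30.8 CPM in TNF- lungs. At a log2 fold change of -0.23, with a 95% interval from -0.48 to 0.01, *Tjp3* missed the threshold (adjusted p = 0.104 by edgeR). Falls of the size seen in *Cgn* or *Tjp1* thus lay outside the interval of *Tjp3*. The interval of *Tjp3* overlapped that of *Epcam*, which ran from -0.67 to -0.18.

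*Krt8* (ENSMUSG00000049382.10, chromosome 15, 101996698 to 102004482) encodes keratin 8, a filament protein of simple epithelium that pairs with keratin 18. It had 82.3, 73.8 and 59.5 CPM in TNF+ lungs and 173, 173 and 211 CPM in TNF- lungs. The groups were well apart, and *Krt8* was 2.58-fold lower (log2 fold change -1.37, adjusted p = 0.000186 by edgeR). Of the 100-base windows of its transcripts, the length of a read, 17.1% also occur in the pseudogene *Krt8-ps* or in *Gm36026*, which overlaps *Krt8* at its own locus on the opposite strand. *Krt8-ps* had 224 to 751 counts per lung, against 1887 to 7168 for *Krt8*. For *Cgn* the share was 9.55%, with *BC021767*, which had 133 to 658 counts, against 818 to 3919 for *Cgn*. The methods name uniquely mapped transcripts as the input of the expression test, so reads in windows shared with *Krt8-ps* or *BC021767* may be missing from the counts of *Krt8* and *Cgn*. The other 8 genes shared no such window. *Krt8*, *Cldn3* and *Tjp3* overlap exons of a gene on the opposite strand over 5.16%, 3.18% and 1.08% of their exon bases, and the strand setting of the counting is not given in the sources used here.

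**Figure D2:**
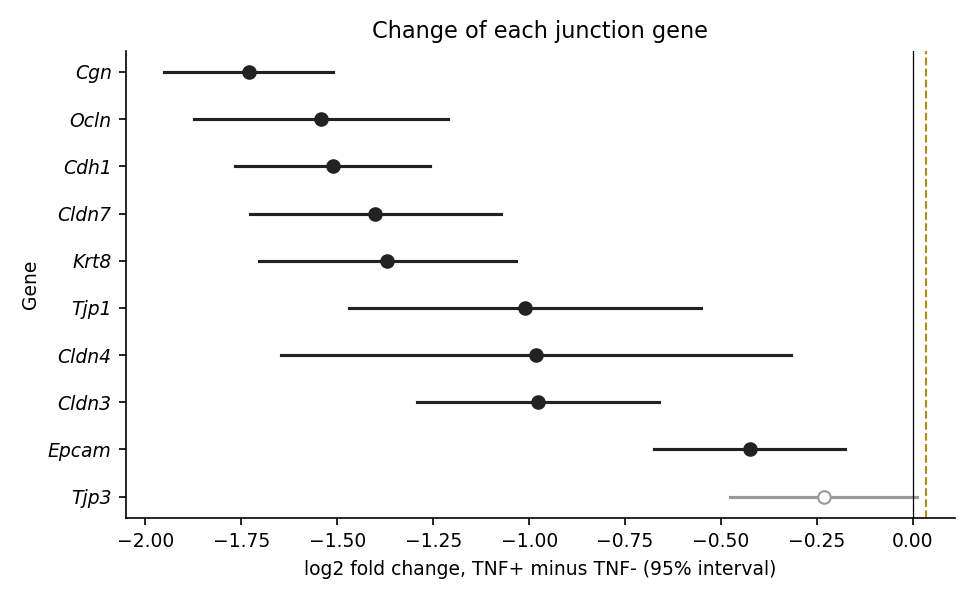
Log2 fold change of each junction gene (TNF+ minus TNF-) with its 95% interval from edgeR, ordered by size, with a filled point past the threshold and an open one where not. *Cgn* lies lowest at -1.73, *Tjp3* alone is open, and the dashed line marks the median of all tested genes at 0.03.

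Per length, the order of the genes was nearly the same in both genotypes, apart from *Cgn* and *Epcam*. CPM per kilobase of exon sequence was highest for *Krt8* (94.8 ± 11.1, SD, n = 3) and *Cldn3* (94.2 ± 11.6) in TNF- lungs, whose ranges overlapped. *Cdh1* (65.9 ± 5.13) and *Tjp1* (37.5 ± 10.05) followed, each below the range of the gene above it. *Cgn* (18.5 ± 0.65) and *Cldn7* (17.0 ± 2.09) overlapped, and so did *Tjp3* (7.53 ± 0.68) and *Ocln* (6.95 ± 0.87), with *Epcam* (12.3 ± 0.64) between these pairs and *Cldn4* (3.05 ± 0.92) at the bottom. In TNF+ lungs the level of *Cldn3* was 47.9 ± 6.95 CPM per kilobase (SD, n = 3) and that of *Krt8* was 36.7 ± 5.90, again with overlapping ranges. *Cgn* stood at 5.58 ± 0.45 in TNF+ lungs, below the ranges of *Epcam* (9.19 ± 0.76) and *Tjp3* (6.41 ± 0.26), while its range overlapped that of *Cldn7* (6.43 ± 0.85). In TNF- lungs it lay above the ranges of *Epcam* and *Tjp3*.

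Set against *Epcam* in the same lung, most of the other genes were lower in TNF+ lungs. *Epcam* fell less than all of them but *Tjp3*, so the direction of the mean differences follows from the log2 fold changes above. The log2 CPM of *Cgn* exceeded that of *Epcam* by 2.07, 2.05 and 2.01 in TNF- lungs and by 0.72, 0.57 and 0.91 in TNF+ lungs. The log2 difference of *Cldn7* from *Epcam* was 0.23, 0.22 and 0.40 in TNF- lungs and -0.60, -0.75 and -0.74 in TNF+ lungs, so its sign differed between the genotypes. The difference did not overlap between genotypes for 7 of the 9 other genes, and 67.4% of all tested genes with counts in every lung showed the same, so this count says little about the junction genes in particular. The 7 were *Cdh1*, *Cldn3*, *Cldn7*, *Ocln*, *Tjp3*, *Cgn* and *Krt8*. Of these, *Tjp3* was the one with the higher difference in TNF+ lungs (0.24 ± 0.13 against 0.04 ± 0.08, SD, n = 3). *Cldn4* and *Tjp1* overlapped. These differences are a description and were not tested.

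**Figure D3:**
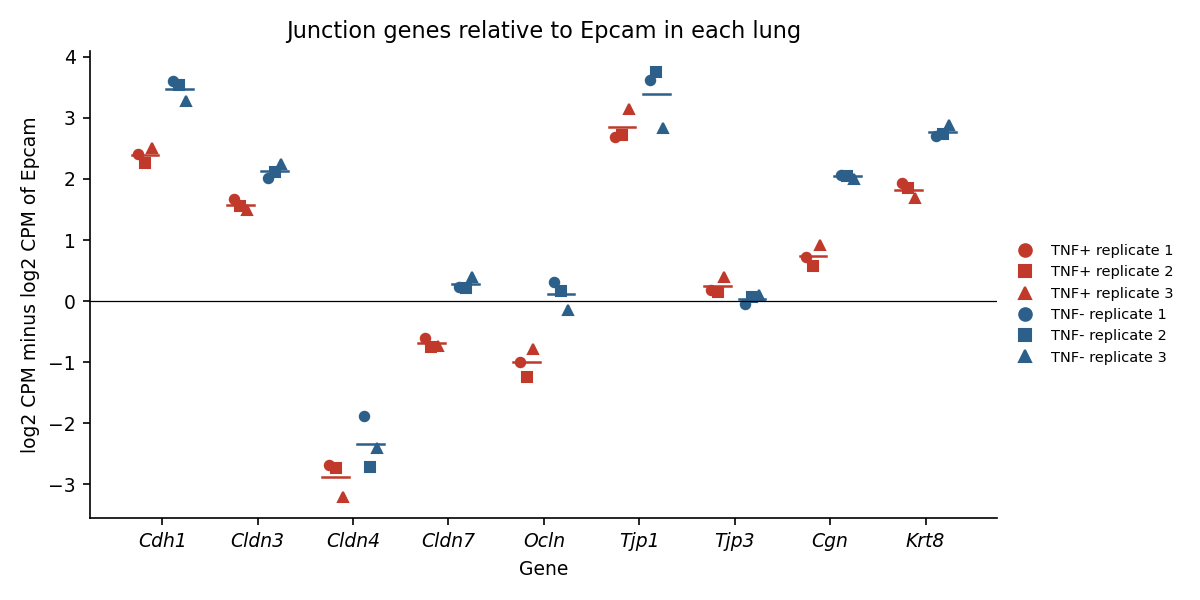
Log2 CPM of each junction gene minus that of *Epcam* in the same lung, TNF+ in red and TNF- in blue, with a line at the mean of 3 lungs. *Cgn* has a mean of 2.04 in TNF- and 0.74 in TNF+ lungs, and *Tjp3* lies between -0.05 and 0.39 in all 6 lungs.

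The other genes of the same junctions were taken from lists of 53 genes, of which 50 were tested. Of these, 39 were lower and 2 were higher in TNF+ lungs, and their median log2 fold change was -0.93. Without TNF- replicate 1, 36 were lower and 1 was higher. Groups did not overlap, with TNF+ lower, in 40 of the 50. Over all tested genes, 23.4% were called lower, 24% were called higher and 28.2% were lower without overlap. Without TNF- replicate 1, 3901 of 19677 tested genes were called lower. These shares also stand beside the counts of every list that follows.

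Of 9 tested genes in the list of other claudins, 6 fell and *Cldn1* rose. *Cldn5* is not among the 9 and is given below with the endothelial markers. *Cldn18*, the main claudin of alveolar epithelium, had 200, 189 and 204 CPM in TNF+ lungs and 480, 404 and 421 CPM in TNF- lungs, a log2 fold change of -1.14 (adjusted p = 0.000119 by edgeR). *Cldn10*, found in secretory airway cells, fell further, from 19.1 ± 2.24 to 4.54 ± 0.753 CPM (SD, n = 3, log2 fold change -2.07). *Cldn12* (log2 fold change -0.79) and *Cldn23* (-1.50) also fell, *Cldn23* on few counts (13, 21 and 14 in TNF+ lungs, 59, 35 and 65 in TNF- lungs). *Cldn1* had 12.3, 12.5 and 9.28 CPM in TNF+ lungs and 8.44, 8.31 and 8.47 CPM in TNF- lungs, so it was higher by 0.43 on the log2 scale (adjusted p = 0.0465 by edgeR). It lost the threshold without TNF- replicate 1, at 0.41 on the log2 scale (adjusted p = 0.129 by edgeR) and with the replicate block (adjusted p = 0.0891 by edgeR), and DESeq2 did not call it (adjusted p = 0.0501).

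Of 19 further tight junction genes, 17 fell, with a median log2 fold change of -0.88 over the list. The 4 with the lowest p were *Prkcz* (log2 fold change -1.46, adjusted p = 4.7e-05 by edgeR), *Patj* (-1.43), *Pard6b* (-1.31) and *Prkci* (-0.93). *Prkcz* and *Prkci* encode atypical protein kinases C, and *Patj* and *Pard6b* encode their scaffold partners. *Jam3*, a junctional adhesion molecule also found on endothelium and leukocytes, rose from 8.99 ± 0.64 to 17.6 ± 2.38 CPM (SD, n = 3, log2 fold change 0.97, adjusted p = 0.000877 by edgeR).

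Of 11 adherens junction genes beside *Cdh1*, 6 fell and 5 did not pass the threshold. *Nectin3* (log2 fold change -1.51), *Vcl* (-1.50), *Jup* (-1.35) and *Ctnna1* (-0.78) fell. They encode a nectin, vinculin, plakoglobin and alpha-catenin. *Ctnnb1*, the gene of beta-catenin, which also carries Wnt signals in many cell types, had 505, 510 and 540 CPM in TNF+ lungs and 602, 594 and 548 CPM in TNF- lungs, a log2 fold change of -0.16 that missed the threshold (adjusted p = 0.242 by edgeR).

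Of 8 tested desmosome genes 7 fell, with a median log2 fold change of -2.09 over the list. The plakin gene *Ppl* had 26.5, 27.2 and 27.4 CPM in TNF+ lungs and 196, 131.5 and 133 CPM in TNF- lungs, a log2 fold change of -2.51 (adjusted p = 2.1e-05 by edgeR). *Dsp*, the gene of desmoplakin, fell by a log2 fold change of -2.07, *Evpl* by -2.60 and *Pkp2*, a plakophilin gene, by -0.79. Apart from *Dsg2*, each of them had its highest level in TNF- replicate 1, as did *Pkp1*, which was too low elsewhere to be tested (1212 counts in that lung and no more than 6 in any other). Squamous epithelium is rich in desmosomes, and without that lung the median was -1.29 with 6 of 8 genes lower. *Ppl* (-2.31), *Dsp* (-1.77) and *Evpl* (-1.95) stayed past the threshold without it.

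The simple keratins moved with *Krt8*. All 3 tested fell, *Krt19* by a log2 fold change of -1.72, *Krt7* by -1.60 and *Krt18*, the partner of keratin 8, by -1.04 (adjusted p = 0.000222, 3.61e-05 and 0.00583 by edgeR). None of the 3 had its highest level in TNF- replicate 1.

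**Figure D4:**
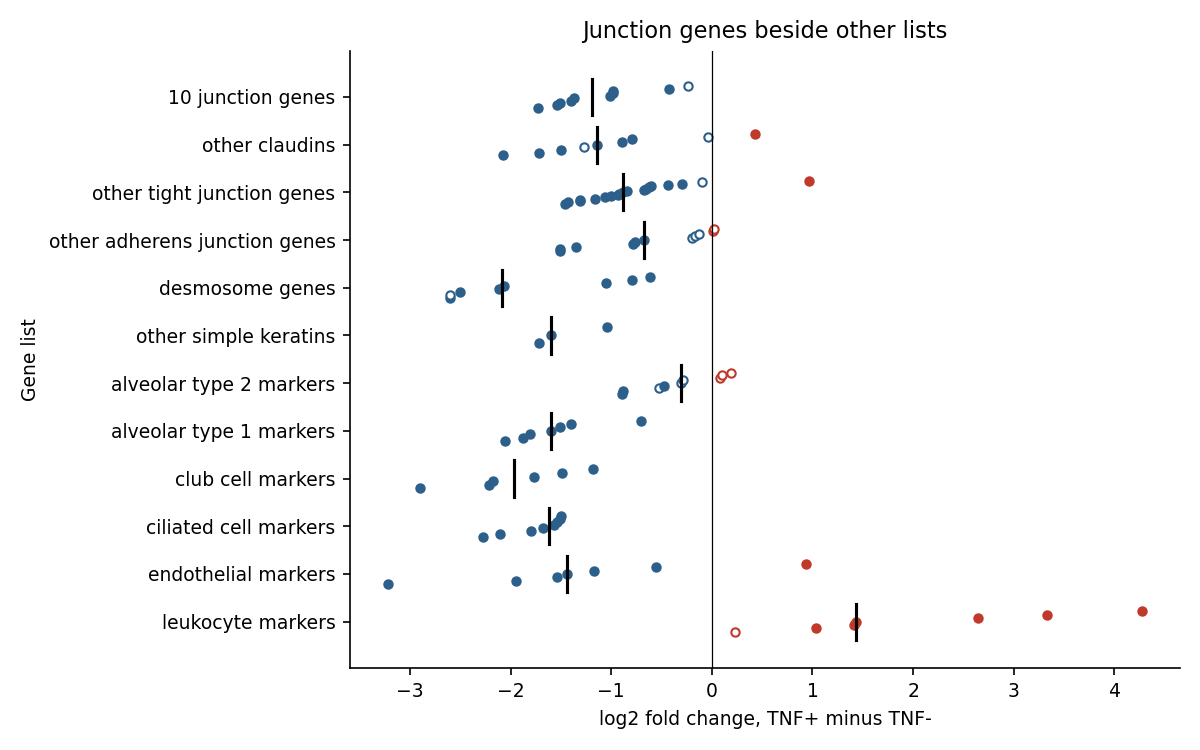
Log2 fold change (TNF+ minus TNF-) of every tested gene of 12 lists, filled where past the threshold, blue where lower and red where higher, with a black bar at the median of the list. The 10 junction genes lie between -1.73 and -0.23, and the median of the type 2 cell markers is -0.30, beside -1.60 for type 1, -1.97 for club and -1.62 for ciliated cell markers.

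Because whole lung mixes many cell types, the epithelial cell markers were read beside the junction genes. Of 30 such markers 24 were lower in TNF+ lungs and none was higher, with a median log2 fold change of -1.51. Without TNF- replicate 1 the count of lower markers was 22. All 7 markers of alveolar type 1 cells fell (median -1.60), among them *Aqp5* (log2 fold change -1.88), *Clic5* (-2.06), *Hopx* (-1.60) and *Rtkn2* (-1.81). All 6 club cell markers fell (median -1.97), with *Muc5b* at -2.90 and *Scgb1a1* at -1.77. Among them *Scgb3a1* had overlapping groups and was not called by DESeq2 (adjusted p = 0.0563) or without TNF- replicate 1, where its log2 fold change was -1.29 beside -1.18 with all lungs (adjusted p = 0.0551 by edgeR). All 8 ciliated cell markers fell (median -1.62), with *Tppp3* at -2.27. Of 9 markers of alveolar type 2 cells 3 fell, *Abca3* (log2 fold change -0.89), *Sftpb* (-0.88) and *Etv5* (-0.48), and their median was -0.30. *Sftpc*, the surfactant gene that defines type 2 cells, had 12610, 9791 and 9499 CPM in TNF+ lungs and 13680, 17020 and 15160 CPM in TNF- lungs, a log2 fold change of -0.52 that missed the threshold (adjusted p = 0.0837 by edgeR). The type 2 count depended on the tool, since DESeq2 also called *Sftpc* (adjusted p = 0.000524) and *Slc34a2* (adjusted p = 0.0185) lower. Without TNF- replicate 1 edgeR called 2 of the 9, *Etv5* being lost (log2 fold change -0.39, adjusted p = 0.0649).

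Relative to these markers, the junction genes did not keep 1 ratio. The log2 of their summed CPM over that of the type 2 markers was -5.36, -5.25 and -5.12 in TNF+ lungs and -4.32, -4.60 and -4.53 in TNF- lungs, so it was lower in TNF+ lungs. Over the type 1 markers it was -1.53, -1.42 and -1.40 in TNF+ lungs and -1.74, -1.82 and -1.80 in TNF- lungs, so it was higher there. Over the ciliated cell markers it was also higher, at 1.36, 1.58 and 1.83 in TNF+ lungs and 1.03, 1.13 and 0.48 in TNF- lungs. Over the club cell markers the groups overlapped, with -3.75, -3.67 and -3.45 in TNF+ lungs and -4.42, -3.71 and -4.55 in TNF- lungs. Most of the club sum was *Scgb1a1*, with 19810, 9575 and 19130 CPM in TNF- lungs. The TNF- lung that overlapped was replicate 2, where *Scgb1a1* was lowest of the 3. Likewise, *Sftpc* made up most of the type 2 sum and *Ager* most of the type 1 sum, so these ratios lean on single genes. How far the makeup of the epithelium moved the junction genes was not tested.

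Markers of other cells moved too. Of 7 leukocyte markers 6 rose, and their summed level was 8305 to 9301 CPM in TNF+ lungs and 2804 to 2884 CPM in TNF- lungs. CPM are shares of a library, and the part of this rise in the fall of the 9 junction genes was not tested. Of 7 endothelial markers 6 fell, *Vwf* by a log2 fold change of -3.22, *Tek* by -1.94, *Cldn5*, the claudin of endothelial tight junctions, by -1.54, *Kdr* by -1.44 and *Cdh5* by -1.17, and *Emcn* rose. The summed endothelial level was 1407 to 1612 CPM in TNF+ lungs and 3438 to 4251 CPM in TNF- lungs, lowest among TNF- lungs in replicate 3, where *Tjp1* was lowest as well. The share of *Tjp1* counts that came from endothelium was not tested.

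**Figure D5:**
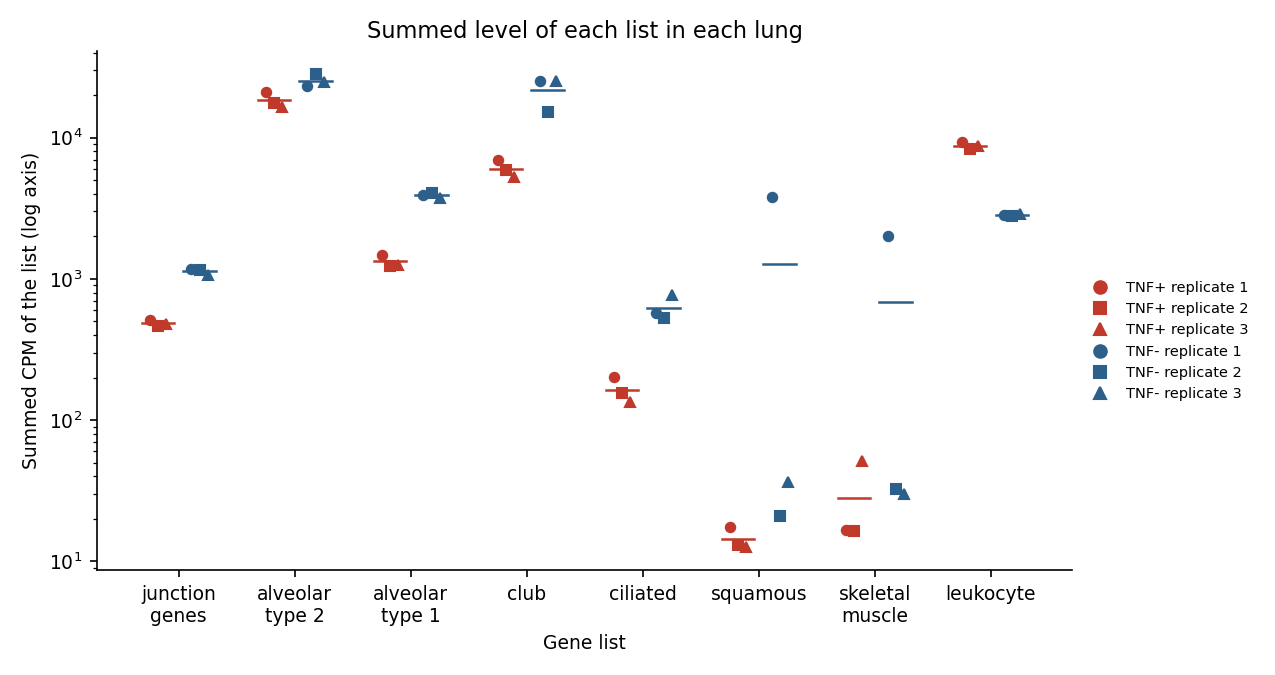
Summed CPM on a log axis for 8 lists in each lung, TNF+ in red and TNF- in blue, with a line at the mean of 3 lungs. The junction genes sum to 466 to 515 CPM in TNF+ lungs and 1071 to 1170 CPM in TNF- lungs, and TNF- replicate 1 stands far above the other lungs for squamous and skeletal muscle markers.

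Transcription factors that keep or repress the epithelial junction program were read next. Of 13 genes for factors of the epithelial program, 12 fell, with a median log2 fold change of -1.11, and 11 fell without TNF- replicate 1, where *Grhl3* was highest and without which it lost its call (log2 fold change -1.47 beside -3.37, adjusted p = 0.0764 by edgeR). *Ehf* did not pass the threshold with all lungs (-0.19, adjusted p = 0.172 by edgeR). *Nkx2-1*, the lineage factor of lung epithelium, fell by a log2 fold change of -0.92, *Foxa1* by -1.12, *Foxa2* by -1.11, the splicing factor *Esrp1* by -1.05 and *Grhl2*, the Grainyhead-like factor that activates junction genes, by -0.73. Of 5 tested genes for known repressors of *Cdh1*, 3 fell and 1 rose. *Zeb1* (log2 fold change -0.84) and *Snai2* (-0.99) fell, and *Zeb2*, which macrophages also express, rose by 0.91 (adjusted p = 0.00768 by edgeR). *Snai1* had 11.2, 9.58 and 16.2 CPM in TNF+ lungs and 15.2, 14.7 and 13.7 CPM in TNF- lungs, and the groups overlapped. *Twist2* (-1.22) also fell, with overlapping groups and not past the threshold without TNF- replicate 1, at a similar log2 fold change of -1.16 (adjusted p = 0.0871 by edgeR), and *Twist1*, with 1 to 12 counts per lung, was too low to be tested.

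The start regions of the junction genes were searched for the letters that Snail, Zeb and Grainyhead-like factors read. Motifs of the other factors named above were not searched. The search covered 12 windows of 300 bases from RefSeq (GRCm38.p6) for 9 of the 10 genes, with 250 bases before each annotated start and 50 after. *Cdh1* was not searched here. The E-box CAGGTG, read by Snail and Zeb factors and searched on both strands, was in 9 of the 12 windows and 7 of the 9 genes, where 20.2% of all 32851 windows held it. One site of *Ocln* lies in both of its windows, which overlap, and the downstream one holds 2 E-boxes. The windows of the junction genes had a median GC content of 60.9%, against 52.7% over all windows, and whether this sets the share was not tested. The Grainyhead-like motif AACCNGTT, also searched on both strands, was in 1 window, that of *Cgn*, and in 2.09% of all windows. Of the genes with a pair of E-boxes in 1 window, *Epcam*, *Cldn7* (its downstream start) and *Cldn4* are shown, together with *Krt8* and with *Cgn*, the gene that fell most, over the 250 bases before the start, 5′ to 3′ on the strand of the gene, with matches in capitals. A match shows letters only and says nothing of binding in these lungs.
*Epcam* (chr17:87635729-87635978, plus strand): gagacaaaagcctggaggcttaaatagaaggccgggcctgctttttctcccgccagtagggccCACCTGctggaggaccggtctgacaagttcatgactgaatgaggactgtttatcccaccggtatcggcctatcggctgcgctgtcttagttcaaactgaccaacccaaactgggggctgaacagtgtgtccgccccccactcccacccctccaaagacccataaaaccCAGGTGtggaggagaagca
*Cldn7* (chr11:69965171-69965420, plus strand): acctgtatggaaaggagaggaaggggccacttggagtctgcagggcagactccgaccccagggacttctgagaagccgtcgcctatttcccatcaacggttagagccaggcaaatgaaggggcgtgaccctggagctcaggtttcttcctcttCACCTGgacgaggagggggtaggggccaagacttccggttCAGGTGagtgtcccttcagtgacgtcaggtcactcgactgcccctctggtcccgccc
*Cldn4* (chr5:134946935-134947184, minus strand): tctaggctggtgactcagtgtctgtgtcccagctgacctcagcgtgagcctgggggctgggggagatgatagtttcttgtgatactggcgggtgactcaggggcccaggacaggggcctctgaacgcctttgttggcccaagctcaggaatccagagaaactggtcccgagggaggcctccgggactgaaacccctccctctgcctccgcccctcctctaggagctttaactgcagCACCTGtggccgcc
*Krt8* (chr15:102004343-102004592, minus strand): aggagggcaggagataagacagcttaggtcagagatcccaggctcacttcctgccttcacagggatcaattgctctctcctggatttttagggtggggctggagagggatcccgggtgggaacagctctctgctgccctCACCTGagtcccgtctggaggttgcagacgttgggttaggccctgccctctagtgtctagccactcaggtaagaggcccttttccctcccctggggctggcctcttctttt
*Cgn* (chr3:94786483-94786732, minus strand): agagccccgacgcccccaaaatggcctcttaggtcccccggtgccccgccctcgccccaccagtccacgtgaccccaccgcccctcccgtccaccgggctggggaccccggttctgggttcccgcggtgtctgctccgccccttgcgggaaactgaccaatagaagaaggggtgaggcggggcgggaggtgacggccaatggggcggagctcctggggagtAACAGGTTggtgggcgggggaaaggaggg

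In *Epcam* the E-boxes lay 187 and 19 bases before the start, in *Cldn7* 97 and 57 bases before it, and in *Krt8* 111 bases before it. In *Cldn4* one lay 14 bases before the start, and its second lay 11 bases after it, outside the stretch shown. In *Cgn* the Grainyhead-like match lay 29 bases before the start. *Tjp3*, *Ocln* and *Cldn3* held E-boxes as well, and the window of *Tjp1* held neither motif.

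Genes outside the 10 with the most similar pattern were found by distance. For each of the 14989 tested genes whose mean log2 CPM was 1 or more, the root mean square difference between its centred log2 CPM and the mean of the junction genes was taken over the 6 lungs. The nearest were *Map7* (0.04), *Pdzk1ip1* (0.04), *Tom1l1* (0.05), *Rasef* (0.05) and *Ctdspl* (0.05). Their log2 fold changes lay between -1.20 and -1.05. Of the junction genes themselves, *Cldn3* (0.14), *Cldn7* (0.18) and *Krt8* (0.18) lay nearest to their common mean, and *Tjp3* (0.45) and *Epcam* (0.35) lay farthest. Over 6 lungs in 2 groups this likeness is mostly the shared difference between the genotypes.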

How the data were processed

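Poly(A) RNA of 6 whole lungs was sequenced as stranded single-end libraries of 100 bases. Read trimming by the authors used Trimmomatic, alignment to mm10 (GRCm38.p5 per the labels) used STAR, and the deposited values are raw counts for each gene symbol. The submitters' processing notes name featureCounts, without its strand setting or annotation. All 6 columns were used.

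The 19199 genes kept by filterByExpr were TMM-normalized and fitted on genotype alone in edgeR 4.0.16 (R 4.3.3). Its quasi-likelihood p-values were adjusted by Benjamini-Hochberg, with a threshold of 0.05. The standard error is the size of the log2 fold change divided by the square root of F. Log2 CPM for the distance measure used a prior count of 2. Positions and exon lengths came from GENCODE M21 (mm10), and promoter windows from RefSeq. DESeq2 (version 1.42.0), limma-voom (limma version 3.58.1), other scalings and filters, the replicate block and each lung left out were alternatives. The fits were checked on counts drawn with known changes.

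Named are the 10 genes and, from each fixed list, up to 4 genes with the lowest p, and others are named as counterexamples or defining genes chosen after their values were seen. The genes and lists were chosen with earlier results of these data known.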

Additional observations from a re-analysis of the deposited data

How the results depend on the processing

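The number of junction genes called was 9, all lower in TNF+ lungs, with DESeq2, with limma-voom, after scaling by DESeq2 size factors or by totals alone, under both other filters and with robust dispersion, and 8 or 9 when a lung was left out. The gene lost was *Cldn4* in each of the 3 fits that called 8 (without TNF+ replicate 2, TNF+ replicate 3 or TNF- replicate 1). Where a call also needed a log2 fold change of at least 1 in size, the junction genes called were 6, the other junction genes 22 instead of 41 and all genes 4320 instead of 9096. No log2 fold change of the 10 genes changed sign under any alternative that gave one. With a lung left out, all genes called ranged from 7347 to 9164. With the replicate block 7686 genes were called, again with 9 junction genes. The replicate numbers mark different mice, and same-numbered lungs did not deviate together (correlations across genes of -0.15, 0.00 and -0.24 for numbers 1, 2 and 3), so the block was not used in the main model, and no lung correlated best with its own number. Among the 10 genes *Cldn4* had the fewest counts, with 64 to 230. Several tested claudins of the other list had fewer, *Cldn23* with 13 to 65, *Cldn8* with 7 to 59, *Cldn2* with 17 to 52 and *Cldn22* with 0 to 26. The lowest claudins, *Cldn6* and *Cldn9*, were not tested. How far depth, rather than spread between lungs, limits these genes was not tested.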

Other observations

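Mesothelial genes were read as a further possible source of *Krt8*, since mesothelium is also a simple epithelium with keratin 8. Fibroblast genes were read as those of another cell type of whole lung. Of 5 mesothelial markers 3 fell, *Upk3b* by a log2 fold change of -1.83, *Upk1b* by -1.34 and *Lrrn4* by -1.31 (adjusted p = 0.00267, 0.00196 and 0.00419 by edgeR). *Msln* and *Wt1* did not pass the threshold (log2 fold changes -0.04 and 0.48). The summed mesothelial level was 90.1 to 162 CPM in TNF+ lungs and 168 to 299 CPM in TNF- lungs. Of 5 fibroblast markers 4 fell, *Tcf21* by -2.13, *Col1a1* by -1.34, *Pdgfra* by -0.66 and *Col1a2* by -0.59, and 2 of 5 were past the threshold without TNF- replicate 1. *Col1a2* and *Pdgfra* then missed it at log2 fold changes of -0.58 each (adjusted p = 0.0543 and 0.0629 by edgeR).

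The 8 skeletal muscle markers each had their highest level in TNF- replicate 1, where they summed to 2001 CPM, against 29.9 and 32.3 CPM in the other TNF- lungs. TNF+ replicate 3 held 51.1 CPM and the other TNF+ lungs 16.5 and 16.6 CPM. Of 7 tested muscle markers 3 were lower in TNF+ lungs, and 1 was lower without TNF- replicate 1. The median log2 fold change of the muscle markers was -4.69 with all lungs and 0.57 without that lung, so its sign turned. Of 8 tested squamous markers 6 were lower, and 4 of 8 without that lung.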
